A study of Mus musculus with 5 samples.

Results

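Regions of open chromatin that lie far from genes were examined in mouse bone marrow. Overlapping peaks of 5 libraries on chromosomes 1 to 19 were merged into 224370 regions. A region was called far where its midpoint lay over 100 kb from the body of every protein-coding gene of the mm10 genome. This rule kept 37072 regions, 16.5% of all. They had a median distance of 267 kb from the nearest gene, 2641 of them (7.12%) lay over 1 Mb away, and the farthest lay 2258 kb away. The other 187298 regions are called nearer regions. Stretches of the genome that far from genes are often called gene deserts. Some hold distal enhancers, short stretches bound by transcription factors that act on a gene across a long distance, and cohesin, a ring-shaped complex, extrudes the DNA loops through which such sites can meet promoters. In blood progenitors, distal enhancers of this kind are known for Myc and Runx1.

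Open chromatin was mapped by bulk ATAC-seq, in which a transposase cuts accessible DNA, in lineage-depleted bone marrow whose cells the labels give as HSPC, hematopoietic stem and progenitor cells. In the Smc3-het group (2 libraries) the genotype was Mx1-Cre+, inv(16);Smc3 D/+, and in the Smc3-wt group (3 libraries) Mx1-Cre+, inv(16);Smc3 +/+. All samples had the treatment PIPC, a double-stranded RNA that induces interferon and thereby Mx1-Cre, so that Cre, the inv(16) allele and PIPC were shared by both groups, and Mx1-Cre is active in many interferon-responsive tissues. Smc3 encodes a core subunit of cohesin, and the series concerns how cohesin haploinsufficiency and inv(16), an inversion found in acute myeloid leukemia, act together.

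Neither the age of the mice nor whether libraries came from different animals is labelled, so the spread behind each p-value may be technical. Peak lists do not show whether an Smc3 allele was lost. Of 8 HSPC marker genes, 4 (Ptprc, Runx1, Myb and Flt3) had a peak within 1 kb of a gene end in all 5 lists, and Gata2 had one in Smc3-het replicate 1 alone. The 3 B cell, 3 T cell and 4 other-organ markers had none in any list, whereas the erythroid gene Klf1 and the endothelial gene Kdr had one in all 5, and the endothelial gene Cdh5 in none. Of 3 megakaryocyte genes, 2 and 2 had one in Smc3-het against 3, 0 and 2 in Smc3-wt. Peaks numbered 26341 and 35335 for Smc3-het (replicates 1 and 2) against 64486, 98196 and 118349 for Smc3-wt (replicates 1 to 3), and values by library follow this order throughout. Unless stated otherwise, each list was cut to the length of the shortest, 26341 peaks, by −log10 p (an equal-size list). The weakest peak kept had a −log10 p of 3.47 and 5.60 for Smc3-het against 9.77, 10.3 and 14.4 for Smc3-wt, with a background coverage of 3.59 and 2.92 against 2.74, 1.93 and 3.02 fragments. Lists of one size therefore reached weaker peaks in Smc3-het, and how far this enters the genotype differences given here was not tested.

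The far regions that were most often shared between lists included starts of long non-coding RNA genes (lncRNA). The promoter windows of 5 of them, chosen after their values were seen, from 250 bases before to 50 after the start, are shown from RefSeq (GRCm38.p6, the same build as mm10), 5′ to 3′ on the strand of the gene. Gm29998 had the strongest such far region, Dubr lies in the desert between Ccdc54 and Cblb, Gm4258 lies next to Ptprc, Mir99ahg is the host gene of miR-99a and let-7c, and Morrbid is known in mice for controlling Bcl2l11 in myeloid cells. Capitals mark matches, on either strand, to the GATA motif AGATAA (reverse complement TTATCT), the RUNX motif TGTGGT (reverse complement ACCACA), the ETS motif AGGAAG (reverse complement CTTCCT) and the AP-1 motif TGAGTCA (reverse complement TGACTCA).
Gm29998, chr19:33391551-33391850, plus strand: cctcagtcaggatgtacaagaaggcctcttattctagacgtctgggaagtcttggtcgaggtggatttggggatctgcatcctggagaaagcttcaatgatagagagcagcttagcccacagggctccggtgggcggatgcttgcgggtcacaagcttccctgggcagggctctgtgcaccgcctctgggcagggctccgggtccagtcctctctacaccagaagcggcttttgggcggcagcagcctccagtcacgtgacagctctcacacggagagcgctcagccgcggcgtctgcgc
Dubr, chr16:50732724-50733023, minus strand: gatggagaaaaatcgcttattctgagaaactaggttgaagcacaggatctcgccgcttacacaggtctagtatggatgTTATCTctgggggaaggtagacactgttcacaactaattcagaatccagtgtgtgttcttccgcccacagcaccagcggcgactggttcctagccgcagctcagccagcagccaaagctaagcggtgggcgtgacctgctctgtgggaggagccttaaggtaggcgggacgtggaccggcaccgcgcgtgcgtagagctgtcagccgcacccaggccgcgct
Gm4258, chr1:137898214-137898513, plus strand: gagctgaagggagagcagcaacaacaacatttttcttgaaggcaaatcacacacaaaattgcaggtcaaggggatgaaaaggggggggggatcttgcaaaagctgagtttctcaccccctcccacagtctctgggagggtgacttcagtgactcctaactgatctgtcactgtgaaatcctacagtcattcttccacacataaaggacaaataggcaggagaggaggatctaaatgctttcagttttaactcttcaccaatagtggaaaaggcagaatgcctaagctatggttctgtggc
Mir99ahg, chr16:77329078-77329377, plus strand: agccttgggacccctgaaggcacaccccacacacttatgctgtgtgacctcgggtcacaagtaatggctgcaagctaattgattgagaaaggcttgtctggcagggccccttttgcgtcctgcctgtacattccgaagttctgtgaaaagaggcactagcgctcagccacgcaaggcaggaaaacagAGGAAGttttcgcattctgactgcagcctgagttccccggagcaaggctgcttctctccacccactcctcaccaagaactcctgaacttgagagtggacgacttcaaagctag
Morrbid, chr2:128429302-128429601, minus strand: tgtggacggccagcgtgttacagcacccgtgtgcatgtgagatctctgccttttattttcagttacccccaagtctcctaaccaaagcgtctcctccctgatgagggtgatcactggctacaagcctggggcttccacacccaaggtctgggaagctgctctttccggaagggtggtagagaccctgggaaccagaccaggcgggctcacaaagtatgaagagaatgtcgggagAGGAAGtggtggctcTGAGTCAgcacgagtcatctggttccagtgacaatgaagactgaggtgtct

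A match is a description of letters and not of a bound factor. Dubr holds 1 GATA match, Mir99ahg 1 ETS match and Morrbid 1 ETS and 1 AP-1 match, whereas Gm29998 and Gm4258 hold none of the 4 motifs. The GC content of the windows was 61.0% for Gm29998, 57.3% for Dubr, 46.3% for Gm4258, 53.7% for Mir99ahg and 54.7% for Morrbid.

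At the Gm29998 start (region chr19:33391523-33392504, 107 kb from Lipo4) the pileup, the number of fragments that cover the summit, was 65 and 40 in Smc3-het against 66, 61 and 105 in Smc3-wt. Divided by the local background, this was 11.7 and 9.45 in Smc3-het against 10.8, 14.2 and 14.1 in Smc3-wt, so the groups overlapped. At the Dubr start (chr16:50732188-50733226, 142 kb from Ccdc54) the ratio was 5.75 and 8.41 against 10.1, 11.7 and 10.5, with both Smc3-het values below the Smc3-wt values. At the Gm4258 start (chr1:137898253-137899224), 164 kb from Ptprc, which encodes the phosphatase CD45 of all nucleated blood cells, it was 5.90 and 6.94 against 6.57, 6.75 and 7.78, and the groups overlapped. The Mir99ahg start (chr16:77328819-77330189) was not called in Smc3-het replicate 1 and had ratios of 6.27 in Smc3-het replicate 2 against 7.59, 8.25 and 5.43 in Smc3-wt, the last from the full list alone. The Morrbid start (chr2:128427419-128430158) was likewise not called in Smc3-het replicate 1, had a ratio of 3.81 in Smc3-het replicate 2 and ratios of 4.43, 3.95 and 4.87 in Smc3-wt, that of replicate 2 from the full list alone.

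In all, 192 far regions overlapped the window of at least 1 of 193 lncRNA genes. Of these, 34 (17.7%) were called in at least 3 equal-size lists, against 1.72% of the other 36880 far regions, and 14 were called in all 5. Over all 37072 far regions 669 were called in at least 3 lists, which is 1.8%, against 8.91% of all regions. Peaks at lncRNA starts were wider than other far peaks in each of the 5 libraries, with medians of 432 and 510 bp against 362 and 391 bp elsewhere in Smc3-het, and 854, 723 and 801 bp against 539, 500 and 646 bp elsewhere in Smc3-wt. The mean difference was 176 bp (p = 0.063, two-sided exact sign-flip permutation test over 5 libraries, the smallest p this design allows). Their pileup over background differed by 0.09 on the log2 scale and was higher at starts in 4 of 5 libraries (p = 0.125, same exact test). A wider region overlaps a window more readily, and far regions of 5 full lists were wider than those of 1 (medians of 1045 and 375 bp). The rule for starts thus favors wide and shared regions. How far this enters the differences in width and in sharing was not tested. Of the 38 windows at starts shared by at least 3 lists, 44.7% held an ETS match, 23.7% a RUNX match, 21.1% a GATA match and 7.89% an AP-1 match. These were 17, 9, 8 and 3 windows. The 38 windows belong to 35 genes, and some overlap, as those of Gm4258 do, so they are not separate members. No difference from the shares given next was tested. The same shares over 171 windows at starts in other far regions were 36.3%, 22.8%, 15.2% and 5.85%. Over all 11310 lncRNA windows they were 37.2%, 20.1%, 14.0% and 6.25%, and over all 31365 windows, coding genes included, 35.1%, 16.7%, 11.2% and 5.26%.

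Of 919 microRNA hairpins on these chromosomes, 101 lay over 100 kb from every protein-coding gene, and 6 of them had a far region of at least 3 lists within 50 kb. Among these were Mir99a and Mirlet7c-1, which share a transcript of Mir99ahg and lie 482 and 483 kb from the nearest protein-coding gene. Their mature 5p forms are shown with the seed, bases 2 to 8, in capitals, since the 2 seeds differ.
mmu-miR-99a-5p, chr16:77598940-77598961, plus strand: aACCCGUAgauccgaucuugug
mmu-let-7c-5p, chr16:77599672-77599693, plus strand: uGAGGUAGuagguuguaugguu

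The nearest far region called in at least 3 lists (chr16:77643770-77644750, 44770 bp from Mir99a) was called in all 5 lists, with a pileup over background of 4.57 and 4.48 in Smc3-het against 6.41, 7.71 and 6.76 in Smc3-wt. Both Smc3-het values lay below the Smc3-wt values, as they did for most regions of all kinds (given with the genotype comparison). The other 4 hairpins with such a neighbor were Mir6363 beside Dubr, Mir6368, Mir5099 and Mir6372.

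Far regions were rarely shared between libraries. In the full lists 34100 of 37072 (92.0%) were called in 1 library alone and 295 in all 5, against 75.3% and 13993 of the nearer regions. Of the 34100, 448 and 2593 came from Smc3-het against 4556, 12698 and 13805 from Smc3-wt, so most came from the 2 longest lists. In the equal-size lists 4627 far regions were called at least once, of which 3545 (76.6%) were called in 1 list and 211 (4.56%) in 5, against 25409 (49.98%) and 11845 (23.3%) of 50837 nearer regions. Far space, the part of chromosomes 1 to 19 over 100 kb from a protein-coding gene, made up 658 of 2404 Mb (27.4%). It held 56.3 regions per Mb against 107 per Mb in the rest of the genome. In equal-size lists it held 1.64 and 2.81 regions per Mb in Smc3-het against 1.88, 2.45 and 1.84 in Smc3-wt, against 13.7 to 14.3 per Mb elsewhere.

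**Figure D1:**
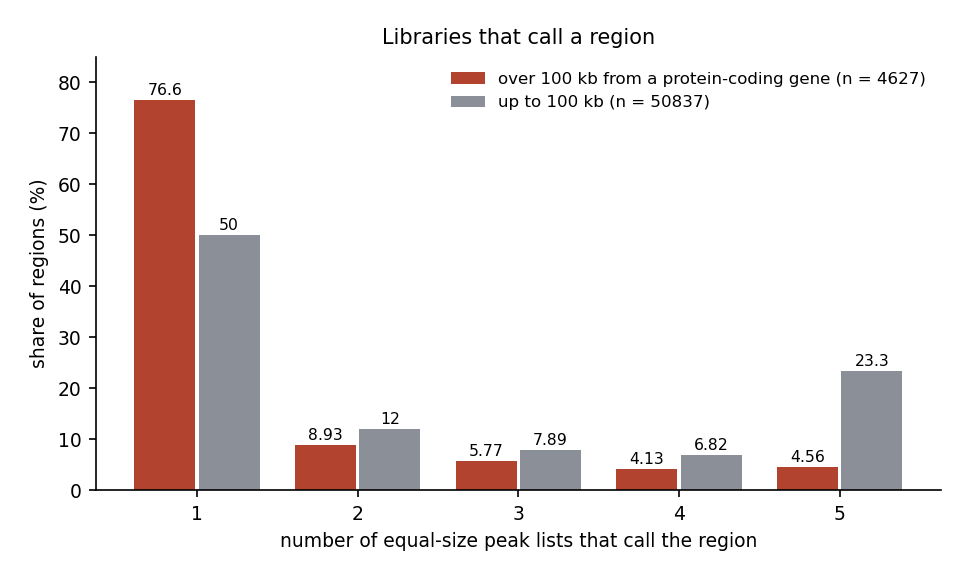
The share of regions (y axis, %) called in 1 to 5 of the equal-size lists (x axis), for far regions (red, n = 4627) and nearer regions (gray, n = 50837). Far regions called in 1 list make up 76.6%, against 49.98% of nearer regions, and those called in 5 lists 4.56% against 23.3%.

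Far peaks were less often found again, narrower and weaker than nearer peaks within every library. The share of a library's far regions also called in at least 1 other list was 45.8% and 34.2% in Smc3-het against 63.6%, 46.1% and 64.9% in Smc3-wt. For nearer regions it was 72.8% and 77.2% in Smc3-het against 83.8%, 78.6% and 83.9% in Smc3-wt. The far share was lower in 5 of 5 libraries, with a mean difference of -28.3 ± 9.83 percentage points (SD of the differences, n = 5 libraries), with p = 0.063 by a two-sided exact sign-flip permutation test, the smallest p that 5 libraries can give, so no such difference can pass 0.05. A shared region counts in the share of every library that holds it, so the 5 differences behind this SD and p are not independent. Far and nearer peaks were also compared within 10 bins of equal peak number by rank of −log10 p, which match strength only roughly. The difference was then -15.5 points, and against regions 10 to 100 kb from a gene it was -16.6 points. Both alternatives were chosen after the data were seen.

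The median far peak was 365 and 392 bp wide in Smc3-het against 546, 506 and 652 bp in Smc3-wt, against 488 and 559 bp and 736, 701 and 844 bp for nearer peaks. Far peaks were narrower in 5 of 5 libraries, with a mean difference of -173 ± 30.3 bp (SD, n = 5; exact sign-flip permutation p = 0.063). It was -56.4 bp within the 10 bins and -52.5 bp against regions 10 to 100 kb from a gene. The merged far regions had a median width of 384 bp, and 798 of them (2.15%) were over 1 kb wide, against 9.51% of nearer regions. The median pileup of far peaks was 17 and 16 fragments in Smc3-het against 24, 19 and 35 in Smc3-wt, against 25 and 24 and 37, 29 and 53 for nearer peaks. As a ratio to the local background, the far medians were 3.702 and 4.33 in Smc3-het against 5.85, 6.49 and 7.11 in Smc3-wt, against 4.14 and 5.06 and 6.59, 7.18 and 7.73. The difference was -0.16 ± 0.04 on the log2 scale (SD, n = 5; lower in 5 of 5 libraries; exact sign-flip permutation p = 0.063). Within the 10 bins it reversed to 0.052, with far peaks the higher ones. Against regions 10 to 100 kb from a gene it was -0.047. By library, the median ratios at 100 to 200 kb were 3.92, 4.33, 5.88, 6.49 and 7.20, near the 3.92, 4.34, 5.88, 6.49 and 7.21 at 50 to 100 kb. Up to 1 kb from a gene body or inside it they were 4.32, 5.35, 6.95, 7.51 and 8.05, the highest of any distance bin in every library.

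**Figure D2:**
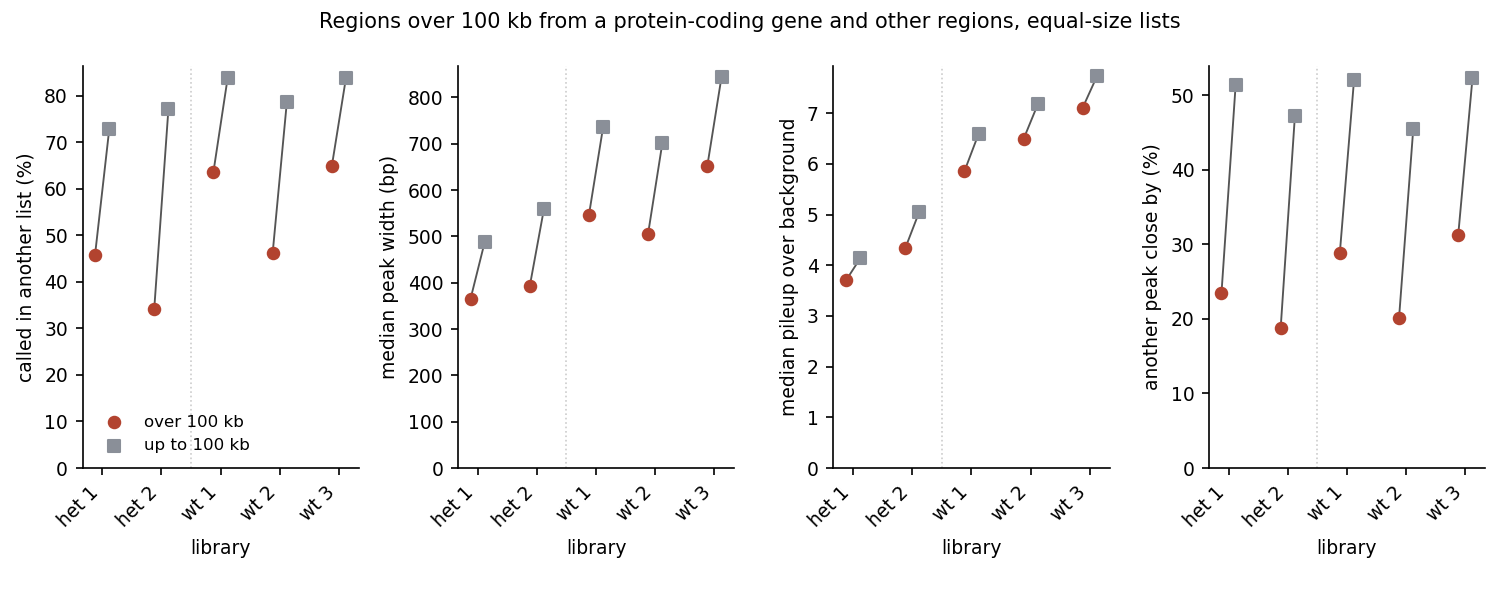
For each library (x axis, Smc3-het left of the dotted line and Smc3-wt right of it), the far value (red circle) is joined to the nearer value (gray square) for the share called in another list (%), the median peak width (bp), the median pileup over background (ratio) and the share with another peak within about 12 kb (%). Far values lie below nearer values in all 20 pairs, with far widths of 365 to 652 bp against 488 to 844 bp.

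Reproducibility was lower at each step of distance. Of regions called in at least 1 equal-size list, the share called in at least 2 was 54.9% up to 1 kb from a gene body or inside it, 40.8% at 1 to 10 kb, 39.4% at 10 to 50 kb and 35.4% at 50 to 100 kb. Beyond 100 kb it was 30.4% at 100 to 200 kb, 22.0% at 200 to 500 kb, 11.2% at 500 to 1000 kb and 8.64% over 1000 kb. The last bin held 243 such regions. At the limit of 100 kb itself, the 3 regions of 5 lists just outside a distance of 100 kb lay near Smim20 and Rbpj (chr5:53378282-53379100), Gm38457 (chr5:64701658-64702423) and Rbm19 (chr5:120015021-120016088), with 5 ratios between 4.59 and 8.26, 2.83 and 9.20, and 4.97 and 11.9. Just inside, 97.3 to 97.9 kb from a gene, lay regions near Max, Tomm20 and Vmn2r87, with ratios of 3.61 to 7.58, 4.23 to 6.66 and 26.3 to 30.2.

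**Figure D3:**
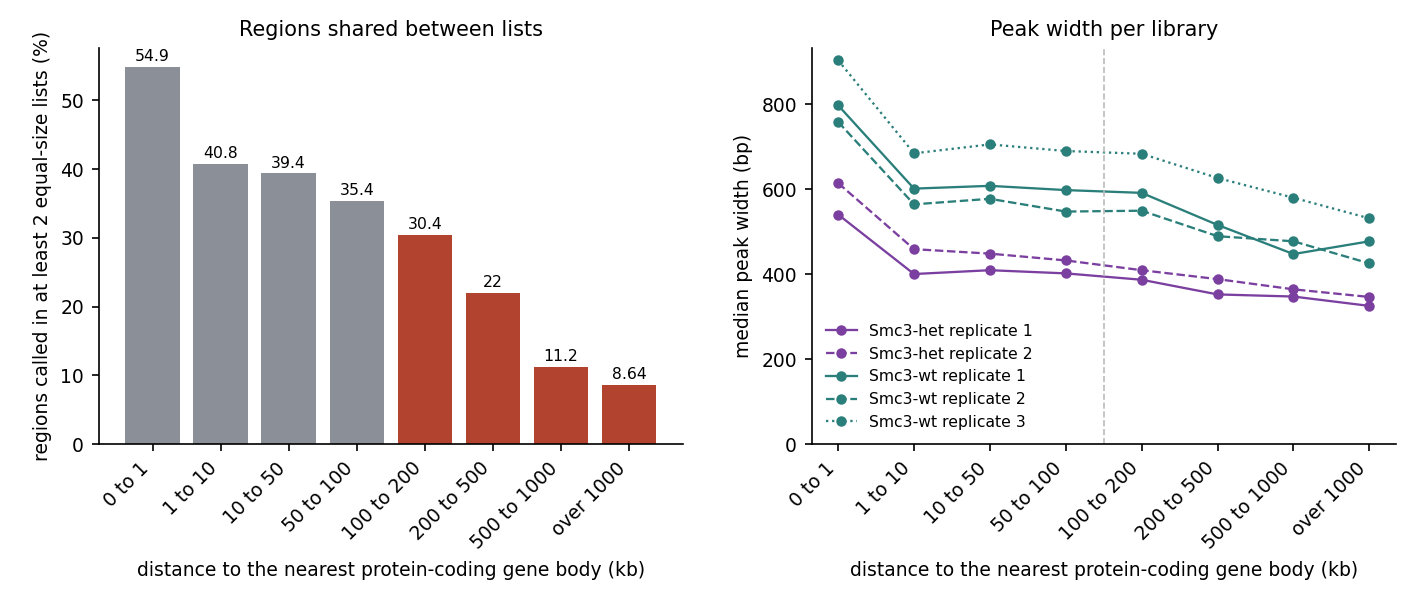
Left, the share of regions called in at least 2 equal-size lists (y axis, %) by distance to the nearest protein-coding gene body (x axis, kb; far bins red), falling to 8.64% over 1000 kb. Right, the median peak width (y axis, bp) of each library in the same bins (Smc3-het purple, Smc3-wt green; the dashed line marks 100 kb), with Smc3-het widths below those of Smc3-wt in every bin.

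The far regions that were shared lay in part around regulators of blood cells. Each far region was assigned to its nearest protein-coding gene, which gave 2120 genes, without implying that it acts on that gene. Of 600 far regions nearest to one of 32 stem cell regulators, 22 (3.67%) were called in at least 3 equal-size lists, and of 255 nearest to one of 22 myeloid regulators and receptors, 13 (5.10%), against 1.8% of all far regions. The share was 4 of 277 (1.44%) for lymphoid regulators, 0 of 91 for megakaryocyte and erythroid genes, 0 of 1 for mast cell and basophil genes and 9 of 1439 (0.625%) for neuronal adhesion and synapse genes. The lists were not matched for distance, with which sharing fell. Jun alone gave 5 of the 13 myeloid regions. Of the 9 neuronal regions, 2 lay near Lrrc4c over a local background of 11553 to 28840 fragments. By library the stem cell list had 32 and 41 far regions in Smc3-het against 42, 42 and 37 in Smc3-wt, and the myeloid list 14 and 14 against 17, 25 and 17. The neuronal list had 34 and 59 far regions in Smc3-het against 14, 30 and 18 in Smc3-wt. All far regions of the same lists numbered 1076 and 1852 against 1240, 1610 and 1213, so that Smc3-het replicate 2 had the most of any library. Of the neuronal genes Cdh9, Cdh8 and Pcdh9, genes of adhesion molecules between neurons, had the most in the full lists (144, 140 and 129).

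**Figure D4:**
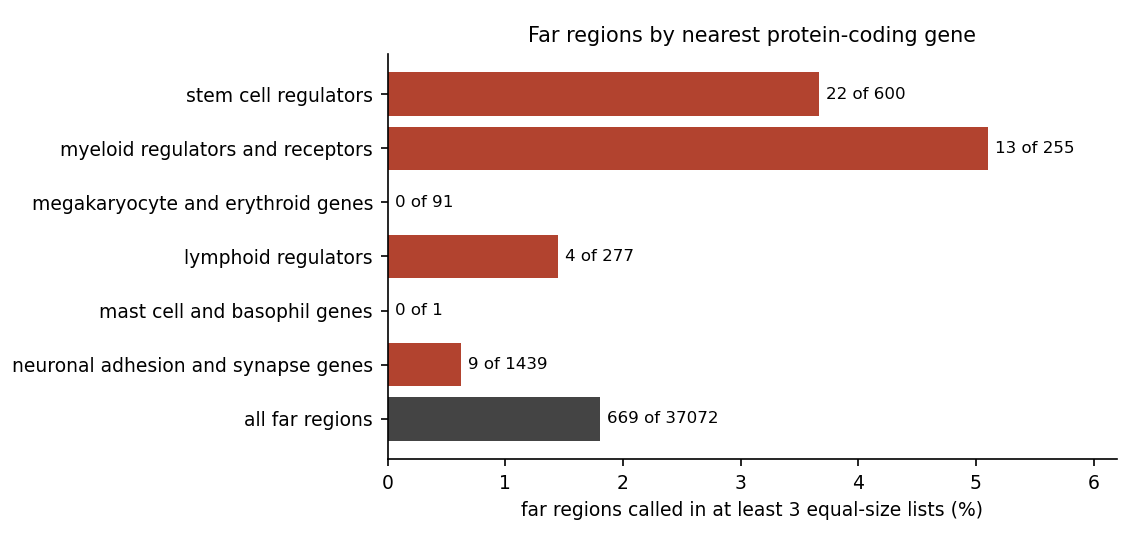
The share of far regions called in at least 3 equal-size lists (x axis, %), by the list of their nearest protein-coding gene (y axis), with the counts beside each bar. Myeloid (13 of 255) and stem cell regulators (22 of 600) lie above the share of all far regions (669 of 37072, dark bar), and neuronal genes (9 of 1439) below it.

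Myc, a transcription factor of cell growth, lies at chr15:61985341-61990361 in a desert of over 1 Mb. Within 2 Mb of it lay 209 far regions, of which 7 were called in at least 3 equal-size lists and 3 in all 5. The equal-size lists held 8 and 9 of them in Smc3-het against 14, 12 and 11 in Smc3-wt, of 1076 and 1852 far regions in all in the Smc3-het lists against 1240, 1610 and 1213 in the Smc3-wt lists. The full lists held 8 and 21 against 45, 84 and 109. The 3 regions of all 5 lists lay inside Pvt1, an lncRNA gene next to Myc. The strongest, chr15:62158264-62159585, lay 169 kb past Myc, with a pileup of 23 and 41 in Smc3-het against 104, 60 and 144 in Smc3-wt, or 4.49 and 7.02 against 10.9, 9.95 and 12.2 times the local background, with both Smc3-het values the lower. The other 2 regions of Pvt1, 231 and 233 kb past Myc, had ratios of 3.25 and 3.67 against 3.24, 4.67 and 3.45 (chr15:62220682-62221850) and 4.95 and 6.89 against 8.74, 5.36 and 8.45 (chr15:62222404-62223978), and the groups overlapped at both. A blood enhancer cluster of Myc is known in mice much farther along this side of the gene, and whether the regions given next belong to it was not examined. Between 1352 and 1627 kb past Myc, 4 regions were called in 3 or 4 equal-size lists. At chr15:63592422-63593476 the ratio was 6.12 in Smc3-het replicate 2 against 9.22, 8.88 and 13.1 in Smc3-wt, and Smc3-het replicate 1 had no peak. At chr15:63610865-63611807 it was 3.47 and 4.33 in Smc3-het against 4.27, 4.42 and 10.3 in Smc3-wt, where the peaks of replicates 1 and 2 were in the full lists alone, and the groups overlapped. At chr15:63341494-63342611 it was 5.35 in Smc3-het replicate 2, the only Smc3-het library with a peak, against 6.66, 3.76 and 8.60 in Smc3-wt, that of replicate 2 from the full list alone. The last, chr15:63616635-63617674, had a peak in Smc3-het replicate 1 and in Smc3-wt replicates 1 and 3.

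Zeb2, a zinc-finger repressor of hematopoietic differentiation, had the most far regions of the stem cell list, 136, of which 3 were called in at least 3 lists. One of them, chr2:45279056-45280737, 162 kb from Zeb2, was called in all 5, with ratios of 5.42 and 6.63 in Smc3-het against 6.35, 6.15 and 6.73 in Smc3-wt. Another, chr2:45261847-45262288, 145 kb from Zeb2, was called in no Smc3-het list and had ratios of 9.88, 8.99 and 9.30 in Smc3-wt. Meis1, a homeobox cofactor of stem cells, had 68 far regions and none in at least 3 lists, and Bcl11a, the fetal globin repressor, which is also in the erythroid list, 67 and none. Car2, a carbonic anhydrase of the erythroid list, had 14 and none.

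The genes that follow were named after their values were seen. Runx1, the DNA-binding partner of Cbfb in core binding factor, had 42 far regions, 6 of them in at least 3 lists, all on one side of the gene between 206 and 372 kb. The region of all 5 lists, chr16:93152905-93153554, 327 kb from Runx1, had ratios of 5.44 and 7.26 in Smc3-het against 5.52, 7.21 and 9.50 in Smc3-wt, and the groups overlapped. At chr16:93147586-93148279, 322 kb from Runx1, the ratio was 3.12 in Smc3-het replicate 1 against 9.43, 7.41 and 10.9 in Smc3-wt, and Smc3-het replicate 2 had no peak. Id2, an inhibitor of basic helix-loop-helix factors, had 4 such regions between 100 and 293 kb away. The farthest of them, chr12:25388871-25390090, was called in no Smc3-het list, with ratios of 6.95, 8.94 and 10.2 in Smc3-wt. Sox4, a factor of lymphoid and leukemic progenitors, had 3, all inside the lncRNA gene 2610307P16Rik. Kit, the stem cell factor receptor, had 2. Of these, chr5:75460070-75461171, 114 kb from Kit, had ratios of 5.01 and 6.19 in Smc3-het against 9.65, 8.19 and 11.1 in Smc3-wt.

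Of the myeloid list, Klf6, a zinc-finger factor, had the most far regions, 85, with 2 in at least 3 lists. At chr13:5714209-5715331, 147 kb from Klf6, the ratio was 3.89 in Smc3-het replicate 2 against 6.39, 6.46 and 8.42 in Smc3-wt, with no peak in Smc3-het replicate 1. Maf, a bZIP factor of macrophages, had 38 and 1, and Tlr4, the lipopolysaccharide receptor, 35 and 0. Jun, a subunit of AP-1, and Bcl6, a repressor, were named after their values were seen. Jun had 31 far regions, of which 5 were called in at least 3 lists and 3 in all 5. The strongest, chr4:95160972-95162205, 109 kb from Jun, had a pileup of 63 and 81 in Smc3-het against 179, 108 and 318 in Smc3-wt, and ratios of 6.70 and 7.40 against 7.32, 9.11 and 10.3, which overlapped. Bcl6 had 2 such regions, and that at chr16:24150883-24152059, 163 kb away, had ratios of 6.53 and 6.73 in Smc3-het against 8.23, 7.88 and 10.7 in Smc3-wt. Of the lymphoid list, Ets1 had 2 regions of at least 3 lists among 64, Gata3 1 among 73 and Tox 0 among 43.

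The genes of this paragraph are in none of the lists and were likewise named after their values were seen. Cited2, a co-regulator that maintains hematopoietic stem cells in mice, was the nearest gene of 126 far regions, 10 of them in at least 3 lists and 4 in all 5. They stretched from 123 to 1359 kb from the gene. At chr10:17521777-17522641, 201 kb away and inside the lncRNA gene Gm32543, the ratio was 6.63 and 7.14 in Smc3-het against 6.38, 10.8 and 14.1 in Smc3-wt, and at chr10:17589098-17590763, 133 kb away, 4.14 and 4.78 against 7.24, 12.6 and 11.5. Cxcr4, the chemokine receptor that holds progenitors in the marrow, had 4, with ratios of 5.47 and 4.21 in Smc3-het against 7.85, 9.12 and 8.94 in Smc3-wt at chr1:128704782-128705739, 113 kb away. Itga4, the α4 integrin, Tgfbr2, a TGF-β receptor, Ptprc and Btg1, an antiproliferative gene, had 4 each, Nrip1, a nuclear receptor co-repressor, 7, and Mef2c, a MADS-box factor, 5. Near Tgfbr2, chr9:116368804-116369783 had ratios of 5.20 and 7.86 in Smc3-het against 14.3, 10.3 and 13.6 in Smc3-wt.

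**Figure D5:**
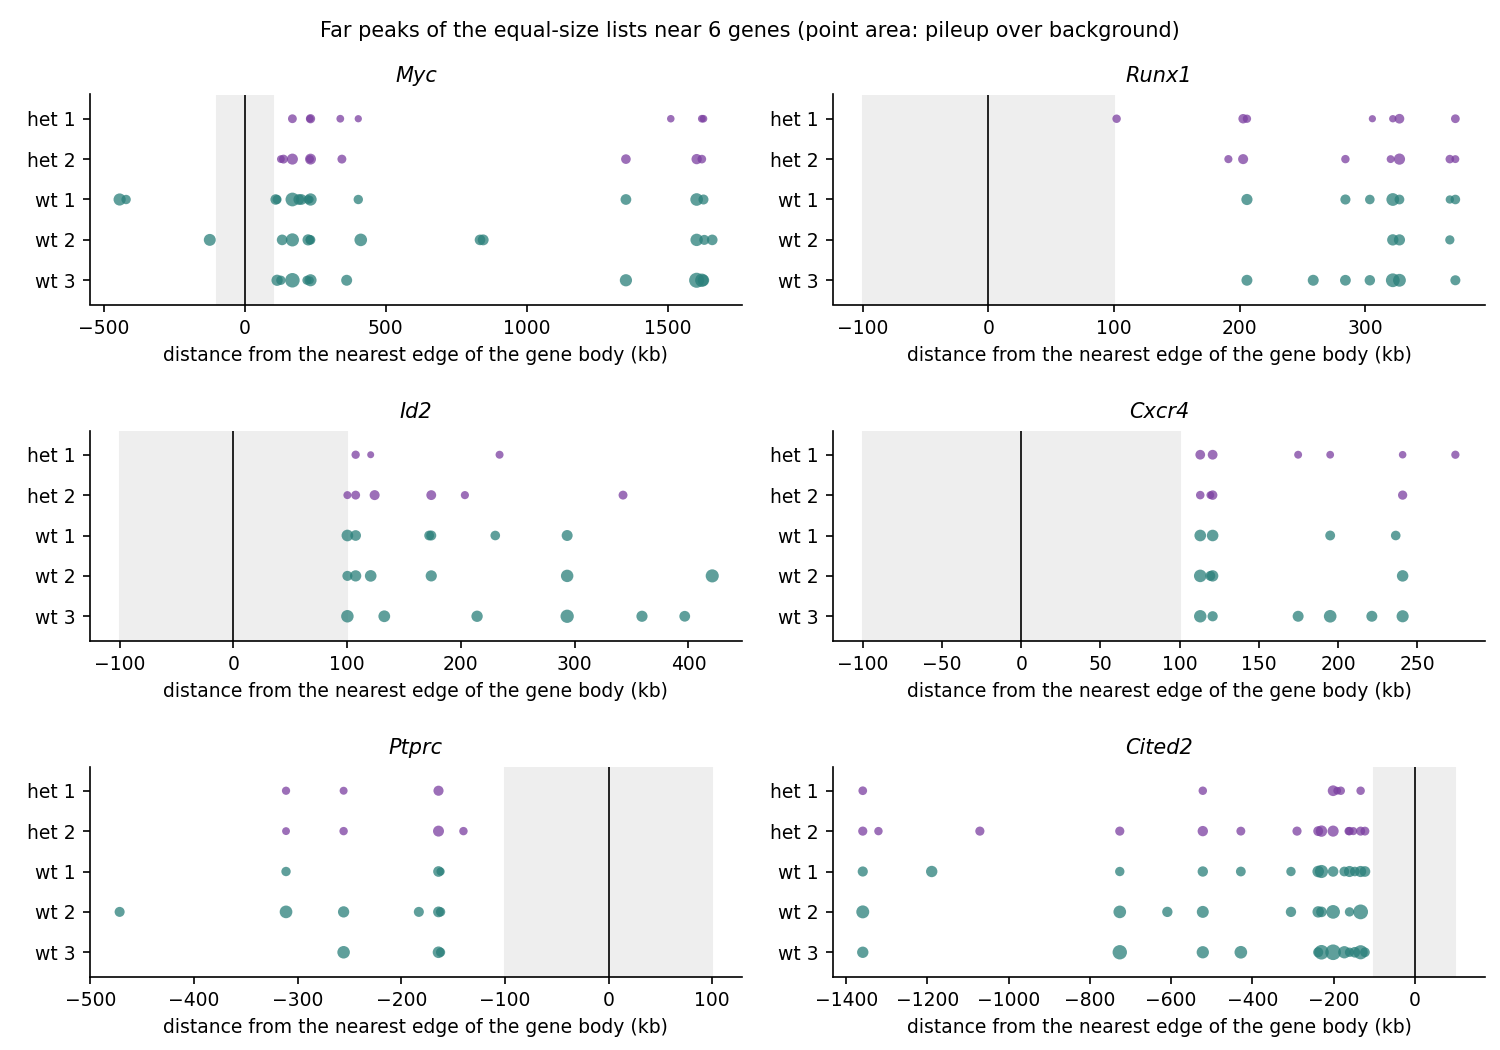
Far peaks of the equal-size lists (points; area in proportion to pileup over background) by distance from the nearest edge of a gene body (x axis, kb) in each library (y axis, Smc3-het above Smc3-wt), within 2 Mb of Myc and for the far regions nearest to the 5 other genes; the gray band is the stretch within 100 kb. Peaks of several libraries line up at 169 and 1603 kb past Myc and at 327 kb from Runx1.

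Non-coding genes held a larger part of the shared far regions. Of all far regions 5839 (15.8%) had their midpoint in a non-coding gene, against 10.3% of nearer regions, and of the 669 in at least 3 lists 203 (30.3%), against 10.97% of nearer regions of that kind. The gene bodies with the most far regions in at least 2 full lists were Igh (51), Tcra (27), Gm30382 (15), Igk (15), Pvt1 (14) and Snhg14 (14). Igh, Igk and Tcra are antigen receptor loci that the gene table does not class as protein-coding, so their segments count as far here. Igh held 15 and 13 far regions in the equal-size lists of Smc3-het and 16, 20 and 15 in those of Smc3-wt, and 3 were called in all 5, the strongest (chr12:115105388-115106007) with ratios of 9.15 and 8.67 against 13.6, 10.3 and 12.7. Tcra held 8 and 8 in Smc3-het against 14, 9 and 11 in Smc3-wt, and Igk 3 and 14 against 2, 10 and 3. Snhg14, the long host transcript of snoRNAs at the imprinted Snurf and Ube3a locus, held 10 and 14 in Smc3-het against 7, 5 and 5 in Smc3-wt, and Pvt1 3 and 5 against 8, 5 and 6, where the groups touched. These counts were out of 1076 and 1852 far regions in the Smc3-het lists against 1240, 1610 and 1213 in the Smc3-wt lists. At chr7:59769770-59770219 in Snhg14 the pileup was 101 and 100 in Smc3-het against 55, 46 and 63 in Smc3-wt over a local background of 13.9 and 15.5 against 10.1, 6.73 and 7.99, so that the ratios of 6.85 and 6.11 against 5.03, 6.08 and 7.12 overlapped.

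A chain of far regions with gaps of at most about 12 kb was taken as a cluster. Of the far regions 8332 (22.5%) stood alone, 3768 chains had 2 regions and 4273 had at least 3. The last held 21204 regions (57.2%), but in 3034 of the 4273 no region was called in 2 full lists, and 146 had a region of 5 equal-size lists. Within single libraries, 23.4% and 18.8% of far peaks in Smc3-het against 28.9%, 20.1% and 31.3% in Smc3-wt had another peak within about 12 kb, against 51.4% and 47.1% and 52.1%, 45.5% and 52.2% of nearer peaks. The far share was lower in 5 of 5 libraries, with a difference of -25.2 ± 3.16 points (SD, n = 5; two-sided exact sign-flip permutation p = 0.063). Such a share falls where peaks are sparse, and the equal-size lists held 1.64 to 2.81 regions per Mb of far space against 13.7 to 14.3 elsewhere. A lower far share was therefore set by density, and whether far peaks cluster less for their density was not tested. The 2 clusters with the most regions had 45 each, at chr14:86126735-86341789 between Pcdh17 and Diaph3 and at chr1:193482135-193683927 between Camk1g and Plxna2. Each had regions called by 1 library for the most part, 33 and 32 of them. Further clusters with many regions in at least 2 full lists lay between Bmp2 and Hao1 (13 of 34, chr2:133996000-134155658), Phlda1 and Krr1 (13 of 33, chr10:111720770-111868773) and Tusc1 and Caap1 (12 of 42, chr4:93443745-93634449).

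The cluster with the most shared regions was of another kind. At chr9:3000002-3066678, the first assembled bases of chromosome 9 and 269 kb from Alkbh8, 16 of 27 regions were called in all 5 lists. Of the 211 far regions of 5 lists, 24 lay in the first 0.5 Mb of a chromosome after the 3 Mb gap, 16 of them here. In 25 of the 211 the local background was at least 10 times that of the library in every list, against 29 of 11845 nearer regions of 5 lists. The highest pileup was at chr2:98666556-98667320, between Lrrc4c and Iftap, with 722719 and 620683 fragments in Smc3-het against 414022, 253001 and 381857 in Smc3-wt, and a ratio of 25.1 and 23.5 against 22.7, 21.9 and 22.0. Another stood at chr14:19416876-19418190, with 84743 and 74691 fragments against 48940, 30718 and 45979. By ratio, the strongest far regions were chr19:61331278-61331580 near Csf2ra (36.6 and 35.2 against 37.5, 37.7 and 37.5), chr1:195371702-195371987 near Cr2 (35.2 and 34.8 against 36.3, 36.2 and 36.4) and chr14:124801560-124802243 near Fgf14 (28.5 and 27.0 against 28.6, 29.1 and 29.0). All 3 lie past the last gene of their chromosome. The other strong ones lay near Pex2 (chr3:5860334-5860830), Samd9l (chr6:3201145-3201627) and, on chromosome 18, past the 3 Mb gap (chr18:3004769-3006080). Removal of blacklisted regions or duplicate reads is stated neither in the labels nor in the processing notes.

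In 78 of the 211 far regions the local background was under 2 times that of the library in every list. Of these, named after their values were seen, the 2 with the highest mean ratio lay at chr8:15519788-15520119 between Myom2 and Csmd1, with 25.4 and 18.3 in Smc3-het against 10.2, 20.1 and 25.9 in Smc3-wt, and at chr13:110744237-110744545, 344 kb from Plk2, with 18.3 and 19.6 against 16.5, 20.7 and 20.1. At chr13:102386832-102387205, 307 kb from Cd180, a B cell and myeloid surface receptor, the ratio was 19.7 and 16.3 in Smc3-het against 15.2, 13.0 and 13.4 in Smc3-wt, one of few places where both Smc3-het libraries were above all Smc3-wt libraries. Its pileup was 101 and 84 in Smc3-het against 56, 37 and 53 in Smc3-wt, the same order of libraries as at chr2:98666556-98667320. The regions near Csmd1, Plk2 and Cd180 were 332, 309 and 374 bp wide, against a median of 1075 bp for far regions of 5 lists. Whether they are of the same kind as that on chromosome 2 was not tested. At chr9:32940258-32940828, 183 kb from Ets1, the ratio was 7.42 and 6.64 against 8.66, 13.3 and 15.6. The far region of 5 lists most remote from a gene, chr1:101901504-101903189 in the desert between Cntnap5b and Cdh20, lay 1412 kb from a gene and had ratios of 6.22 and 6.79 in Smc3-het against 8.91, 13.4 and 9.66 in Smc3-wt. The most remote of all regions in at least 3 lists, chr5:59996445-59997055, lay 1812 kb from G6pd2 and was called in all lists except that of Smc3-het replicate 1. Next came chr10:47453409-47453971, 1640 kb from Grik2, in the Smc3-wt lists alone, and chr14:81557120-81557662, 1534 kb from Olfm4. A region 1359 kb from Cited2 (chr10:16363497-16364798) was called in all 5, with ratios of 4.36 and 4.84 against 5.95, 9.69 and 7.45.

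Smc3-het and Smc3-wt were then compared over the far regions. With 2 against 3 libraries an exact permutation test cannot give a p under 0.2, so no difference could pass a threshold of 0.05. In the full lists the number of far regions was 1076 and 3604 in Smc3-het against 6453, 14887 and 16266 in Smc3-wt, with means of 2340 ± 1788 (SD, n = 2) and 12535 ± 5312 (SD, n = 3) and p = 0.2 (two-sided exact permutation test). The full lists themselves were shorter in Smc3-het, and at −log10 q of at least 5 and 10 the difference of -10195 regions was -3261 and -883. In equal-size lists the far share was 4.19% (95% Wilson interval 3.95 to 4.44) and 7.17% (6.86 to 7.49) in Smc3-het, and 4.77% (4.52 to 5.04), 6.18% (5.90 to 6.48) and 4.64% (4.39 to 4.90) in Smc3-wt. The intervals cover counting error only. The groups overlapped, and the difference was 0.484 points (p = 0.8, two-sided exact permutation test), with a sign that turned when Smc3-het replicate 2 was left out (-1.01) and in the full lists (-5.82).

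Far peaks of Smc3-het were narrower, with a difference of -189.5 bp in the median (379 ± 19.1 bp, SD, n = 2, against 568 ± 75.4 bp, SD, n = 3; p = 0.2, exact permutation test), and the groups did not overlap. This depended on the lists: the difference was -21.2 bp in the full lists, -59 bp at −log10 q of at least 10 and -12.3 bp at −log10 q of at least 5, where the groups overlapped (p = 0.6, exact permutation test). The share found again in another list was 40.03% ± 8.19 in Smc3-het against 58.2% ± 10.5 in Smc3-wt (SD, n = 2 and 3; p = 0.2, exact permutation test), without overlap. Each Smc3-het library has 1 other list of its own genotype and each Smc3-wt library 2, so the measure is not balanced between genotypes. How far this enters the difference was not tested. The difference of -18.2 points was -11.7 and -11.0 without Smc3-wt replicates 1 and 3, where the groups overlapped (p = 0.667 each, exact permutation test), and in the full lists it reversed, to 23.5 points. The share with a neighbor within about 12 kb differed by -5.67 points and overlapped (p = 0.4, exact permutation test). It differed by -25.6 points in the full lists, which hold more peaks in Smc3-wt. The far-minus-nearer differences of the 2 genotypes gave p from 0.2 to 0.4 in 4 exact permutation tests, where 0.2 is the smallest possible.

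At the 211 far regions of all 5 lists, the median pileup over background was 5.02 and 6.30 in Smc3-het against 7.77, 8.29 and 8.96 in Smc3-wt, a difference of -0.57 on the log2 scale (p = 0.2, exact permutation test). Nearer regions of 5 lists did the same, with 5.44 and 6.89 against 8.90, 9.17 and 9.86. Both Smc3-het ratios lay below all 3 Smc3-wt ratios at 127 of the 211 far regions (60.2%), against 73.2% of all 12056 regions of 5 lists, and above them at 7 (3.32%), against 0.174%. Of these 7, 3 were of high local background (2 on chromosome 9 and that at chr2:98666556-98667320), and the others lay near Ofcc1, Cd180, Cd47 and Galr1. When the regions were ranked within each library, 25 (11.8%) of the far regions ranked lower in both Smc3-het libraries than in all Smc3-wt libraries, against 11.5% of all, and 45 (21.3%) ranked higher, against 14.3%. Of the 45, 16 were among the 25 regions of high local background; of the other 186 far regions, 29 (15.6%) ranked higher and 24 (12.9%) lower. These shares have no test, since regions are not replicates.

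Called in all 3 Smc3-wt and in neither Smc3-het equal-size list were 102 far regions (2.2% of 4627), against 1.93% of all regions, and called in both Smc3-het and in no Smc3-wt list were 44 (0.951%), against 1.1%. Both shares were near those of all regions. In the full lists the counts were 397 (1.07%) for Smc3-wt, against 2.46% of all regions, and 16 (0.0432%) for Smc3-het, against 0.0749%. Of the 44 Smc3-het regions 14 were absent from all 3 full Smc3-wt lists, and of the 102 Smc3-wt regions 91 were absent from both full Smc3-het lists. The full lists held 26341 and 35335 peaks in Smc3-het against 64486, 98196 and 118349 in Smc3-wt. That of Smc3-het replicate 1 is also its equal-size list. Absence from the full lists, also for the regions named below, can therefore not be compared between the genotypes. The Smc3-wt regions were 913 bp wide in the median and lay 181 kb from a gene, and the Smc3-het regions 607 bp and 197 kb. The clearest Smc3-wt regions lay near Pabpc2 (chr18:39903312-39904223; ratios of 12.03, 10.9 and 9.39 in Smc3-wt), Ndst4 (chr3:125270445-125271474; 8.93, 7.08 and 9.86), Mad2l1 (chr6:66289077-66289735; 8.37, 7.95 and 9.18), Cdc73 (chr1:142893624-142894604; 9.75, 7.56 and 10.2) and Tmco5 (chr2:116995937-116997024; 9.35, 6.29 and 8.12), and none of the 5 had a peak in either full Smc3-het list. From the gene lists, Id2, Zeb2, Jun and Pcdh9 were among the genes with such a region, and Runx1, Bcl6 and Pcdh9 had one called in both Smc3-het lists and in no Smc3-wt list. The clearest Smc3-het regions lay near Stmn2 (chr3:8245871-8246467; ratios of 14.1 and 10.4 in Smc3-het), Snurf inside Snhg14 (chr7:59778627-59779200; 6.97 and 8.17), Khdrbs3 (chr15:70168544-70168868; 7.40 and 5.86), B020011L13Rik (chr1:117253721-117254586; 5.88 and 6.12) and Galr1 (chr18:82161115-82162704; 5.41 and 3.94). All but that near Khdrbs3 had a peak in at least 1 full Smc3-wt list. The ratios there were 4.78 near Stmn2, 4.54 and 4.80 near Snurf, 4.27 near B020011L13Rik and 3.61 and 4.21 near Galr1. Near Galr1 the ratios of the groups overlapped.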

How the data were processed

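ATAC-seq peaks of 5 mouse bone marrow libraries (2 Smc3-het, 3 Smc3-wt) were analysed. Per the submitters' processing notes, the authors used Bowtie2, MACS2 and mm10; versions and filters on duplicates are not stated there. The deposited pileup (coverage by fragments at a summit) and the deposited fold enrichment (pileup plus 1 over local background plus 1, from which that background was computed) are MACS2's, per the file headers. The −log10 p and −log10 q values of the authors stand in columns whose names the deposited workbook lost, and were identified by MACS2's column order and by a lowest −log10 q of 1.30. Replicates were called singly, and the number of mapped fragments was not used.

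Overlapping peaks were merged (at least 1 bp). Distance ran from a region's midpoint to 20556 RefSeq protein-coding gene bodies (GRCm38.p6, no strand or exons used); 105 genes listed below 3 Mb were left out. Tests were two-sided exact permutation tests over libraries, tried on simulated data. Python 3.11.15, numpy 2.4.6, pandas 2.3.3 and scipy 1.17.1 were used.

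Members and gene lists were chosen with earlier results of these data known. Regions were named by fixed rules: the 8 strongest, the 5 farthest, the 5 clearest of each genotype, 3 either side of 100 kb, those within 2 Mb of Myc, the 6 clusters with most shared regions, the 5 non-coding genes with most, and 3 genes per list. Others were chosen after their values were seen. Some genes that these rules cover are not reported here.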

Additional observations from a re-analysis of the deposited data

How the results depend on the processing

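Of 204 alternative values, 10 changed sign, and 21 counts moved by over 1.5 times. Values that kept their sign could still move: at −log10 q of at least 5 the width difference between genotypes was -12.3 bp, at −log10 q of at least 10 the count difference was -883, and the difference in neighbors was -25.6 points in full lists and -0.863 when peaks were ranked by fold enrichment. The far share, Smc3-het minus Smc3-wt, reversed to -5.82 points in the full lists, -0.462 in lists cut to 50% of the size, and -4.40 and -2.51 at −log10 q of at least 5 and 10, and ran from -1.01 to 1.98 with 1 library left out. The share found again reversed to 23.5, 32.4 and 28.8 points (full lists, −log10 q of at least 5 and 10), the share with a neighbor to 0.181 (smaller lists), and the far-minus-nearer pileup to 0.052 (within 10 bins of −log10 p). Regions in Smc3-het lists alone numbered 68 and 22 at distances of 50 and 200 kb, 16 in full lists, 21 in smaller lists, 7 and 6 at the −log10 q limits, 8 by distance to any annotated gene, and 51 to 1262 with 1 library left out (1262 and 628 without Smc3-het replicates 1 and 2, each leaving 1 list). Those in Smc3-wt lists alone numbered 171, 49, 397, 25, 291, 167 and 13 in the same order, and 135 to 202 (202, 155 and 198 without Smc3-het replicate 2, Smc3-wt replicate 1 and Smc3-wt replicate 2). Clusters of at least 3 numbered 2398 with gaps of 5 kb and 181 over regions of at least 2 full lists. Except for fewer libraries, the cause was not tested. In a replicate block, Smc3-het and Smc3-wt libraries of the same number were paired, and Smc3-wt replicate 3 has no such partner. The differences were 0.204 (share), -8330 (count), -14.9 (found again), -148 bp (width), -0.51 (log2 pileup) and -3.41 (neighbor). With that library left out and no block they were 0.201, -8339, -11.0, -148 bp, -0.51 and -3.41. The mean of paired differences equals the difference of the means of the same libraries, so a block cannot change these values. The block run kept Smc3-wt replicate 3 in the merge and in the calls of other lists, which is where the 2 sets of values differ. Deviations of same-numbered libraries had r = -0.00438 and -0.0150 over 12056 regions, against 0.0150 and 0.00438 for crossed numbers. With 2 Smc3-het libraries the crossed values mirror the others, so this check cannot decide whether the numbers pair libraries. The labels do not state a pairing. Lists of unequal length and reach limit the genotype differences, and 2 against 3 libraries allow no p under 0.2.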
